A study of Mus musculus with 6 samples.

Results

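The guanylate-binding and immunity-related GTPases read here are 10 genes, Gbp2 to Gbp9, Irgm1 and Igtp, chosen by symbol as the members of both families named for their induction by interferon gamma. All 10 were among the 16749 genes listed in at least 1 library. The libraries were made from CD8+ T cells that had been sorted by FACS. They came from the iLN (a tissue given only as this abbreviation) of C57BL/6 mice with tumors, after treatment with the platinum drug oxaliplatin, which damages DNA. The Id2 knockout group (Cd4creId2f/f) had 3 libraries and the WT group (Id2f/f, floxed but without Cre) had 3. Both groups share the floxed allele, the tumor and the drug, and only the knockout carried Cre, so the effects of Cre and of Id2 deletion cannot be told apart. The Cd4 promoter that drives this Cre is active in developing T cells of both the CD4 and the CD8 lineage, so other T cells of these mice may lack Id2 as well. Nothing in the labels ties a library to an animal, and the p-values measure the spread between libraries, which may be technical.

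Guanylate-binding proteins are large GTPases that gather on the membranes of vacuoles holding pathogens, on bacteria that reach the cytosol and on inflammasome platforms. The immunity-related GTPases are smaller. Irgm1 and Igtp (also called Irgm3) belong to their regulatory branch, which keeps the effector GTPases inactive on the cell's own membranes, and in mouse T cells Irgm1 is known to limit death of cells exposed to interferon gamma. Interferon gamma, made by effector T cells themselves, binds a receptor that signals through the kinases JAK1 and JAK2, and the factor IRF1, itself induced by the signal, takes part in switching these genes on. The signal acts on promoters through the GAS element and, by way of IRF factors, through the ISRE, and the letters of both were searched in the promoters at hand.

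The libraries held 7699181 to 7990095 expected counts in the knockout group and 8307284 to 8495123 in the WT group. Id2, the targeted gene, stood at 1.67, 2.64 and 2.12 FPKM in knockout libraries, against 370.98, 146.76 and 149.01 FPKM in WT libraries. FPKM is a level per length of transcript, scaled to the size of the library. The 8 CD8 T cell markers read as a check of the label were present in each library, with Cd8a at 214.16, 196.14 and 231.77 FPKM in knockout and 221.29, 199.92 and 214.69 FPKM in WT, and Thy1 was the 1 of the 8 that passed, as lower in knockout. Transcripts of B cells were present too and differed within groups. The summed FPKM of 14 B cell markers was 701, 3027 and 631 in knockout replicates 1 to 3 and 954, 3193 and 3717 in WT replicates 1 to 3, and Pax5 among them was at 0 in 1 library. Myeloid markers were low, at 33.9 to 39.8 FPKM summed in knockout and 30.3 to 52.3 in WT, with S100a8, Cd14 and Adgre1 at 0 in some libraries and 0 of the 5 tested past the threshold (2 at an unadjusted p under 0.05). Of 4 CD4 T cell markers, 3 were tested and 0 passed or had an unadjusted p under 0.05, with Cd4 at 1.08 to 2.12 FPKM in knockout and 1.22 to 2.97 FPKM in WT. In bulk samples fewer cells of a type and less RNA per cell cannot be told apart.

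The promoters of 4 members are shown, chosen by family branch and size of change among the members with a promoter at hand. RefSeq gave a promoter of 300 bases (GRCm38.p6, 250 before the start and 50 after it) for 6 members, Gbp2, Gbp3, Gbp5, Gbp7, Igtp and Irgm1, with 7 start sites in all. The searched motifs were the ISRE core GAAANNGAAA, read on both strands and so also as TTTCNNTTTC, and the GAS element TTCNNNGAA, which reads the same on both strands. Each of the 6 members had an ISRE core in a promoter, against 3.44% of all 32851 promoters of that length. A GAS match stood in the promoters of 3 members, Gbp5, Gbp7 and Igtp, against 8.3% of all promoters. Capitals mark these matches below.
Gbp3, chr3:142559794-142560093, plus strand: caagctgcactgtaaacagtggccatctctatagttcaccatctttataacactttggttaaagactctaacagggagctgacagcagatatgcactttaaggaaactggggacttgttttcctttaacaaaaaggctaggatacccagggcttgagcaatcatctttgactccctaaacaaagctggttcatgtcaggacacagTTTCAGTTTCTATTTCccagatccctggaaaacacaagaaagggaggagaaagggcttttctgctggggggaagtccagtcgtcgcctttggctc
Gbp7, chr3:142530086-142530385, plus strand: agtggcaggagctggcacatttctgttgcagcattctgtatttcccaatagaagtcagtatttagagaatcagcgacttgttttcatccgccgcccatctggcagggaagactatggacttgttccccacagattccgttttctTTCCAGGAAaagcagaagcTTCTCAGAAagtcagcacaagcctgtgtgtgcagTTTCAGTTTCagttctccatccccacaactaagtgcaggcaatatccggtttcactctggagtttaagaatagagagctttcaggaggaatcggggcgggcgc
Igtp, chr11:58199306-58199605, plus strand: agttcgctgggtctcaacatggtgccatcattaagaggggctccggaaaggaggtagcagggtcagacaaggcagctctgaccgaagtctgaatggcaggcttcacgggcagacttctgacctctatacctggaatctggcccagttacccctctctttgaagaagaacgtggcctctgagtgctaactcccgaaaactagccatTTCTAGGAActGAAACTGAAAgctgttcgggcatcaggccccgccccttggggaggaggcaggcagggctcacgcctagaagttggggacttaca
Irgm1, chr11:48871371-48871670, minus strand: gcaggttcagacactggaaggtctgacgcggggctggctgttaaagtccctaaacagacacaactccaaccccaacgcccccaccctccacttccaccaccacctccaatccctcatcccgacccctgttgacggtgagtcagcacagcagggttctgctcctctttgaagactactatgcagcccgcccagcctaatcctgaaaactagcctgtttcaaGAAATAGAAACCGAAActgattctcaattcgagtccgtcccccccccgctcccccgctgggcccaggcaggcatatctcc
The ISRE core began 45 and 39 bases before the start in Gbp3, where both matches overlap, 53 before it in Gbp7, 34 before it in Igtp and 30 and 24 before it in Irgm1, again overlapping. In Gbp2 it began 59 bases and in Gbp5 165 bases before the start. No ISRE match overlapped a GAS match, and the other listed Gbp3 start, chr3:142560106-142560405, held neither. The E-box letters CAGGTG (also CACCTG), which E proteins can bind, and CAGCTG occurred in none of the 7 windows, against 20.2% and 16.3% of all promoters, which says only that these letters are not in these windows.

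With the exception of Gbp5, the GTPase genes were expressed above the median of the genes tested, by mean FPKM over all libraries. Of the 10, 3 lay above the 90th percentile of level, while Gbp7 lay at the 74.4th and Gbp3 at the 72.5th. Igtp, on mm10 chromosome 11 from 58199556 to 58207592, was the most abundant of the 10 in each of the 6 libraries, at 199.7, 162.82 and 162.49 FPKM in knockout and 162.62, 172.06 and 203.51 FPKM in WT. Its level lay at the 95.7th percentile of the 10890 genes tested. Gbp4 (chromosome 5, 105115767 to 105139586) was the second in each library, with 128.54, 109.83 and 123.65 FPKM in knockout and 111.69, 85.66 and 120.06 FPKM in WT. Igtp and Gbp4 together made up 40% to 41.4% of the members' summed FPKM in knockout libraries and 38.4% to 40% in WT libraries. Gbp9, Gbp2, Gbp6, Irgm1 and Gbp8 followed with overlapping ranges and changed places between ranks 3 and 7 from library to library. Gbp7 and Gbp3 took ranks 8 and 9. Gbp5, which in mice promotes assembly of the NLRP3 inflammasome, was last in each library, with 3.46, 3.46 and 4.42 FPKM in knockout and 3.59, 2.28 and 4.67 FPKM in WT, at the 22nd percentile. The highest mean level was 48.6 times the lowest.

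**Figure D1:**
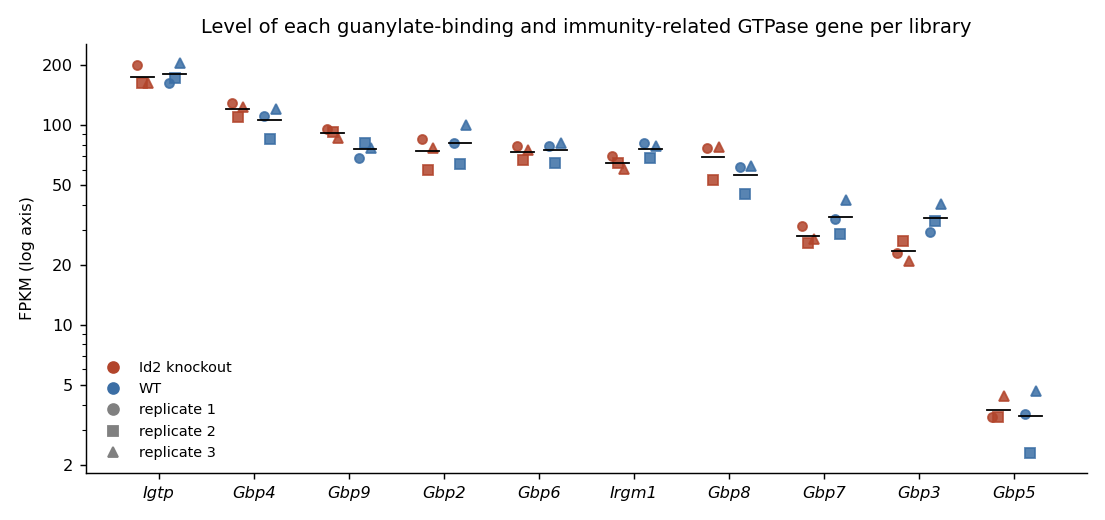
FPKM on a log axis of the 10 GTPase genes, ordered by mean level, with the 3 Id2 knockout libraries left of the 3 WT libraries for each gene. Marker shapes give the replicate and black bars the group mean. Knockout and WT points overlap for 8 genes and separate for Gbp3 and Gbp9.

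The comparison asks whether the levels of these GTPase genes differ between CD8+ T cells without and with Id2. As a group the GTPase genes stood at like levels in both genotypes. Their summed level was 793, 664 and 714 FPKM in knockout and 714, 646 and 810 FPKM in WT, or 724 ± 65 in knockout and 723 ± 82.5 in WT (SD, n = 3 each), and the libraries of both groups are interleaved. By the quasi-likelihood test of edgeR, 1 of the 10 was lower and 0 were higher in knockout at an adjusted p under 0.05. Among all genes tested 11.9% passed in either direction, 8.77% lower and 3.14% higher, so that the share of the members called is near that of genes at large. At an unadjusted p under 0.05 there were 2, Gbp3 and Gbp9, and DESeq2 called 1 and limma 0. The median log2 fold change of the 10, knockout over WT, was -0.04, against 0.01 for all genes tested, with 4 above zero and 6 below, of which Gbp5, Gbp6 and Igtp turned sign when single libraries were left out. The 95% intervals of the 10 log2 fold changes ran from -0.85 at the lowest to 0.70 at the highest.

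Gbp3 was the member that fell. Its level was 23.06, 26.19 and 21.01 FPKM in knockout libraries, against 29.27, 33.25 and 40.36 FPKM in WT libraries. The groups do not overlap, and the means were 23.4 ± 2.61 in knockout and 34.3 ± 5.62 FPKM in WT (SD, n = 3 each). The log2 fold change was -0.56 (SE 0.13, 95% interval -0.85 to -0.28, edgeR adjusted p = 0.0188), a fall of 1.48-fold. The gene lies on chromosome 3 from 142560016 to 142573213. Leaving out WT replicate 3 ended the call (log2 fold change -0.44, adjusted p = 0.0739), as did leaving out knockout replicate 1 (-0.56, 0.0646) or 3 (-0.49, 0.11), and it was not made by limma on log2(FPKM + 1) (adjusted p = 0.0503). Gbp3 had no whole-number count in any library, which means that part of its reads also matched other genes and was divided by estimate. The same held for Gbp4, Gbp6, Gbp7, Gbp8, Gbp9 and Irgm1, and no member had whole counts in every library.

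The other GTPases of the chromosome 3 cluster did not pass. Gbp7, which in mouse macrophages brings the oxidase that makes reactive oxygen to pathogens, stood at 31.15, 25.62 and 27.03 FPKM in knockout and 34.01, 28.62 and 42.04 FPKM in WT, a log2 fold change of -0.33 (95% interval -0.67 to 0.0042, adjusted p = 0.188). WT replicate 3 was the highest library and the other 2 WT libraries lay within or close to the knockout values. Gbp2, a prenylated protein of pathogen vacuoles that lies from 142620663 to 142638008, had 85.48, 59.9 and 76.52 FPKM in knockout and 81.57, 63.91 and 99.65 FPKM in WT (log2 fold change -0.15, interval -0.57 to 0.26). Here the groups overlap widely. For Gbp5 the log2 fold change was 0.09 with an interval of -0.53 to 0.70, the widest of the 10. It had 269.44 counts in the 3 knockout libraries together and 268.78 in the 3 WT libraries.

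None of the 4 members on chromosome 5 passed, and the log2 fold changes of 3 of them were above zero. Gbp9 (105076464 to 105110357) had 96.09, 91.9 and 86.13 FPKM in knockout, against 68.42, 81.4 and 76.96 FPKM in WT. Each knockout library exceeded each WT library, but the difference did not pass across all genes (log2 fold change 0.26, 95% interval 0.04 to 0.48, adjusted p = 0.117). Gbp9 and Gbp3 were the 2 of 10 members whose groups did not overlap, against 32.1% of all genes tested (15.3% higher and 16.8% lower). Gbp8 (105012513 to 105053609) had 76.91, 53.23 and 77.79 FPKM in knockout and 61.99, 45.02 and 62.7 FPKM in WT, a log2 fold change of 0.28 (interval -0.14 to 0.70, adjusted p = 0.372). It was lowest in replicate 2 of either group, and its log2 fold change was 0.041 in a fit with the B cell level as a covariate. Gbp4 gave 0.18 (interval -0.15 to 0.50). Gbp6 (105270702 to 105295871) stood at 78.52, 66.77 and 75.42 FPKM in knockout and 79.07, 64.75 and 81.19 FPKM in WT, and its log2 fold change of -0.04 (interval -0.33 to 0.25) became -0.08 when its counts were summed with those of its close copy Gbp10.

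The regulatory immunity-related GTPases on chromosome 11 were not called either. Irgm1 (48865245 to 48871420) had 70.3, 64.6 and 60.01 FPKM in knockout and 81.69, 68.71 and 78.79 FPKM in WT, a log2 fold change of -0.25 (interval -0.51 to 0.01, adjusted p = 0.197). Knockout replicate 1 lay above WT replicate 2, so the groups overlap at that point. Igtp had a log2 fold change of -0.05 (interval -0.33 to 0.24, adjusted p = 0.85). In knockout 6 of the 10 were lowest (1 tied) in replicate 2, in WT 7 were lowest in replicate 2 and 8 were highest in replicate 3. Knockout replicate 2 and WT replicates 2 and 3 were also the libraries with high B cell markers. The part of the B cell level in this order of the libraries was not tested. In a fit with the B cell level as a term, added once the data had been seen, 1 member was called, Gbp3 at -0.45 (adjusted p = 0.0459).

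Of the relatives outside the 10, edgeR called 0 of the 14 tested in either direction, against 11.9% of all genes tested. There was 1 at an unadjusted p under 0.05, 1 by DESeq2 and 0 by limma. Their median log2 fold change was 0.15 and the values ran from -0.21 for Iigp1 to 0.55 for Gm4841. Ifi47, an immunity-related GTPase of the effector branch, had the highest mean level of all GTPases read, at 207.58, 191.89 and 205.84 FPKM in knockout and 183.22, 153.67 and 189.39 FPKM in WT. Its groups do not overlap, yet its log2 fold change of 0.19 had an interval of -0.08 to 0.45. Tgtp1 and Tgtp2, near-identical copies whose reads are divided by estimate, stood at 85.55 to 131.2 and 108.65 to 153.28 FPKM in knockout and 98.49 to 115.11 and 117.06 to 140.82 FPKM in WT (log2 fold changes -0.02 and 0.02, whose signs turned without single libraries). Gm4841 had 14.06, 20.75 and 20.62 FPKM in knockout and 12.81, 10.74 and 13.82 FPKM in WT (adjusted p = 0.0631, and 0.0255 without knockout replicate 1). Gbp10 gave -0.20, Gbp11 0.45, Irgm2 0.18, Gm5431 0.31, Gm12250 -0.12, Gm12185 0.37, Gm12216 0.23, F830016B08Rik 0.12 and Gvin1 0.04, each as a log2 fold change with an adjusted p of 0.05 or over. Gbp2b was at 0 in 4 libraries and had 1.02 counts in knockout and 9.15 in WT, each in 1 library. Gm4951 and Irgc1 were listed below the level of the filter.

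Of the ligand, receptor and kinase genes of the pathway, Ifng fell and Jak1 rose. Ifng, the ligand, had 27.39, 22.68 and 23.7 FPKM in knockout libraries, against 137.82, 61.22 and 63.94 FPKM in WT libraries. It fell 3.63-fold (log2 fold change -1.86, SE 0.31, interval -2.54 to -1.17, adjusted p = 0.00383), and without WT replicate 1, its highest library, the log2 fold change was -1.32. The whole interval of Ifng lies below the lowest bound of any of the 10 GTPase genes. Between ligand and targets, Ifngr1, the binding chain of the receptor, was at 635.67, 856.76 and 632.85 FPKM in knockout and 586.69, 720.19 and 529.23 FPKM in WT (log2 fold change 0.19, interval -0.12 to 0.51). Ifngr2, the signalling chain, gave -0.25 (interval -0.62 to 0.11). The kinase gene Jak1 rose, with 381.32, 339.31 and 367.81 FPKM in knockout against 284.12, 282.51 and 244.83 FPKM in WT (log2 fold change 0.41, adjusted p = 0.0408), a call lost when WT replicate 2 (adjusted p = 0.0858), WT replicate 3 (0.14), knockout replicate 1 (0.105) or knockout replicate 3 (0.155) was left out, or with the B cell covariate (0.0685). Jak2 gave -0.04 and turned sign without WT replicate 1 or knockout replicate 1.

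The factor gene Irf1 and the feedback inhibitor gene Socs1 were not called. Irf1 had 218.99, 224.74 and 250.29 FPKM in knockout and 247.03, 133.71 and 169.03 FPKM in WT (0.31, interval -0.15 to 0.77). Socs1 had 43.25, 50.81 and 42.78 FPKM in knockout and 45.26, 27.17 and 29.6 FPKM in WT (0.40, interval -0.05 to 0.84). Both Irf1 and Socs1 were high in WT replicate 1, where Ifng was highest, and without that library both passed as higher in knockout (log2 fold changes 0.64 and 0.71, adjusted p = 0.0192 and 0.0128). Other genes did not share this order. Among WT libraries, Casp1 and Cxcl10, target genes read below, were lowest in replicate 1. Ifi30 and Serpina3g, also read below, were highest in WT replicate 3. The relation of any gene to Ifng across libraries was not tested. Of the 16 signalling genes 1 was higher and 1 lower, with a median of 0.12. Among all genes tested 11.9% passed in either direction, so the share of this list is near that of genes at large. The counts were 3 higher and 2 lower without WT replicate 1, 0 and 2 without WT replicate 2, and 0 and 1 when WT replicate 3 or either of knockout replicates 1 and 3 was left out.

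**Figure D2:**
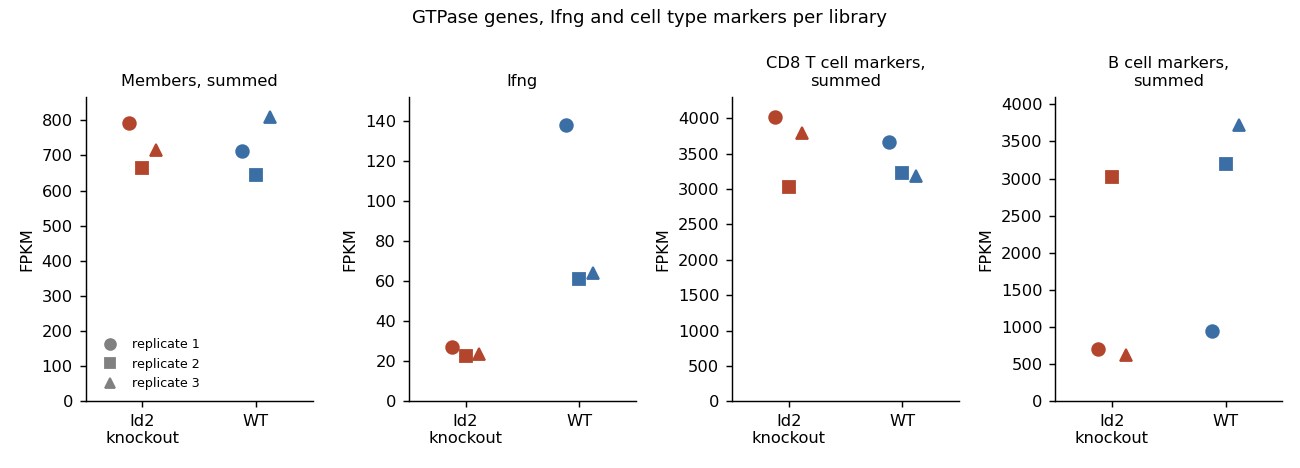
FPKM per library of the 10 GTPase genes summed, of Ifng, of 8 CD8 T cell markers summed and of 14 B cell markers summed, with knockout left of WT and marker shapes for the replicate. The GTPase sums overlap between groups (664 to 793 in knockout, 646 to 810 in WT) and the Ifng values do not.

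Other target genes of interferon gamma were read as a list of 30, of which 26 were tested. By edgeR 4 were lower and 1 was higher, against 8.77% lower and 3.14% higher of all genes tested. Their median log2 fold change was -0.18. Casp1, the inflammasome protease gene, fell most, to 3.44, 3.91 and 3.13 FPKM in knockout, against 7.89, 18.88 and 23.02 FPKM in WT (log2 fold change -2.25, adjusted p = 0.00251). The chemokine gene Cxcl10 had 9.74, 12.57 and 7.12 FPKM in knockout and 19.41, 26.39 and 30.81 FPKM in WT (-1.39, adjusted p = 0.00366). Ifi30, which encodes a lysosomal thiol reductase, had 14.3, 27.44 and 17.11 FPKM in knockout and 42.21, 40.1 and 64.97 FPKM in WT (-1.34, adjusted p = 0.00686). In all 3 genes the groups do not overlap. Serpina3g fell too (log2 fold change -1.23, adjusted p = 0.0271), a call lost when WT replicate 3 (0.115), knockout replicate 1 (0.102) or knockout replicate 3 (0.127) was left out. Several of these genes are also expressed by B cells or myeloid cells. In the fit with the B cell covariate, which was built from the summed B cell markers, all 4 falls were smaller and still called. The log2 fold changes there were -1.75 for Casp1, -1.137 for Cxcl10, -1.115 for Ifi30 and -0.919 for Serpina3g. Cd74 alone made up most of the B cell sum, at 398.66, 1675.71 and 354.06 FPKM in knockout and 529.88, 1785.33 and 2064.02 FPKM in WT. The summed FPKM of 8 dendritic cell markers was 118, 159 and 113 in knockout and 202, 216 and 196 in WT. Bst2 alone made up most of it, at 114.45, 152.72 and 107.75 FPKM in knockout and 178.61, 190.15 and 169.92 FPKM in WT. Of the 8 markers 5 were tested and 4 were lower, Itgax, Zbtb46, Batf3 and Bst2. Xcr1 was not called (log2 fold change -0.10). Siglech, not tested, was higher in each knockout library (0.39 to 0.7 FPKM) than in any WT library (0.24 to 0.3 FPKM). Flt3 was at most 0.52 FPKM and Clec9a was listed in no library. Of 5 NK cell markers 3 were tested. Gzma was lower, at 17.13 to 65.81 FPKM in knockout and 559.57 to 1288.67 FPKM in WT. Tyrobp (log2 fold change 0.04) and Fcer1g (-0.15) were not called. Ncr1 was at 0.17, 0 and 0.18 FPKM in knockout and at 0 in each WT library, where Gzma was high. Klrb1c was at most 1.5 FPKM in any library. The part of dendritic or NK cells in the lower target genes was not tested.

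The gene of this list that rose was Nlrc5, the activator of MHC class I genes, at 48.55, 52.2 and 56.94 FPKM in knockout and 35.43, 34.77 and 44.86 FPKM in WT (log2 fold change 0.44, adjusted p = 0.0436). Its call was lost when WT replicate 1 (0.0954), WT replicate 2 (0.134), knockout replicate 1 (0.0679) or knockout replicate 3 (0.178) was left out, by limma on log2(FPKM + 1) (0.0543) and with the B cell covariate (0.0643). The number of lower genes was 3 without knockout replicate 1 or 3 and 0 were higher there, with edgeR. The 21 others did not pass, among them the immunoproteasome genes Psmb8 (-0.40, adjusted p = 0.0694) and Psmb9 (-0.39, 0.0894). For these, as for 8 of the 26 in all, each knockout library lay below each WT library, against 16.8% of all genes tested. Among the GTPases that was so for Gbp3 alone of the 10. Whether the lists differ from each other was not tested.

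**Figure D3:**
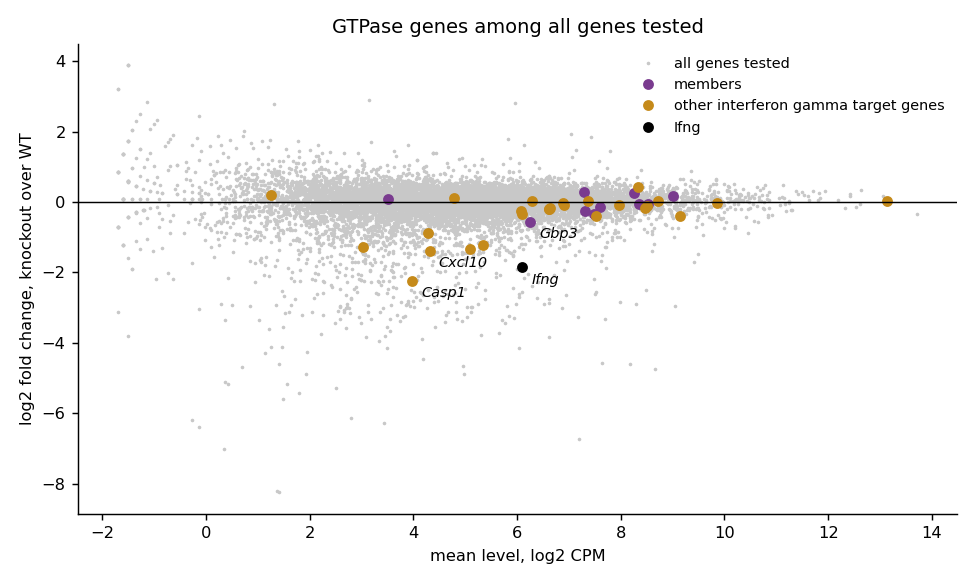
Log2 fold change of knockout over WT against mean level (log2 CPM, counts scaled to library size) for the 10890 genes tested (grey), the 10 GTPase genes, the 26 other interferon gamma target genes and Ifng. The GTPase genes lie close to zero, between -0.56 and 0.28, and Casp1, Cxcl10 and Ifng lie below -1.

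Genes that place these GTPases on membranes were read as a further list. It held the prenyl transferase subunits and processing enzymes, the ubiquitin-like conjugation genes that guide the GTPases to vacuoles, and the damage-sensing galectins. Of 20 tested 2 were lower and 0 higher by edgeR, near the share of all genes tested (8.77% lower and 3.14% higher). None was higher by DESeq2, by limma or at an unadjusted p under 0.05, and the median log2 fold change was 0.00. Of the 20, 2 were higher in each knockout library than in any WT library, against 15.3% of all genes tested. Another 4 were lower throughout, against 16.8%. The conjugation genes Atg3 (0.00, interval -0.26 to 0.26), Atg5 (-0.05) and Atg7 (-0.11) did not pass. Atg12 (0.22, interval -0.06 to 0.50) and Atg16l1 (0.20, interval -0.02 to 0.42), the 2 higher throughout, did not pass either. Gabarapl1, which encodes a ubiquitin-like protein attached to membrane lipids, fell to 7.91, 12.32 and 10.63 FPKM in knockout, against 22.01, 20.86 and 18.82 FPKM in WT (log2 fold change -1.02, adjusted p = 0.0043). Its relative Gabarapl2, the member tied to Gbp traffic in mice, gave -0.18 (interval -0.39 to 0.03). Each knockout library of Gabarapl2 (120.96 to 128.59 FPKM) lay below each WT library (136.83 to 144.56 FPKM). Lgals3, the galectin that marks broken vacuoles and recruits Gbp proteins there, fell to 6.15, 22.95 and 5.66 FPKM in knockout, against 365.5, 164.91 and 277.84 FPKM in WT (-4.58, adjusted p = 0.000462, and -5.51 without knockout replicate 2), while Lgals8 gave 0.14 (interval -0.13 to 0.41).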

How the data were processed

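Per the submitters' processing notes, the reads were processed with CASAVA, Bowtie2 and RSEM on the mouse build mm10, versions and strand not given in the sources used here. Per the file headers, the deposited tables hold an expected count (reads assigned to a gene, those matching several genes being divided) and an FPKM value per gene, along with the length of its transcripts, another number the authors deposited. Between 25% and 26.2% of the expected counts of a library were not whole, at a tolerance of 1e-09. Genes missing from a table were set to 0. Tables were joined by NCBI gene number, and 16707 of 16749 numbers found a symbol in RefSeq's table for GRCm38.p6, which also gave coordinates and promoters.

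Counts were rounded, scaled by TMM and tested, two-sided, by quasi-likelihood F-tests (edgeR 4.0.16, R 4.3.3). The 10890 genes that reached 1 FPKM in 3 or more of the 6 libraries entered the fit, with Benjamini-Hochberg adjustment over all of them. The filter left out 5859 genes and none of the 10 members. The standard error is the log2 fold change divided by the square root of F, and the 95% interval uses the fit's degrees of freedom. Alternatives were DESeq2 1.42.0 and its size factors, limma 3.58.1, other filters, a replicate block, summed counts of near-identical copies, each library left out, and a B cell covariate (chosen after seeing the data). The method was tested on simulated data.

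The members and lists were chosen with earlier results of these data known. Named genes are all members, the relatives listed in any library, fixed genes of the pathway, and in each list those past the threshold or, if none, those with the smallest p. Psmb8, Psmb9, Atg3, Atg5, Atg7, Atg12, Atg16l1, Gabarapl2 and Lgals8 were named after their values were seen. Not every gene taken by this rule is reported. No libraries of a group were duplicates (their counts differed, with chi-square values per degree of freedom of 5.2 to 16.4).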

Additional observations from a re-analysis of the deposited data

How the results depend on the processing

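Gbp3 kept its direction in each alternative run, with log2 fold changes of -0.63 to -0.44, and Ifng kept its call in each, with log2 fold changes of -2.14 to -1.32. The number of members called was 0 with limma at pseudocounts of 1 and 0.1, 0 to 1 without single libraries and 1 in the other fits. All genes called numbered 1297, against 1105 with limma at a pseudocount of 0.1, 1563 with DESeq2, and 601 to 1562 without single libraries (601 without knockout replicate 3, 685 without WT replicate 3). Relatives called numbered 0, against 1 with DESeq2, 1 without a filter and 0 to 1 without single libraries, in each case Gm4841. Signalling genes called numbered 2, against 1 with the B cell covariate, 3 with DESeq2 and without a filter, and 1 to 5 without single libraries. Other target genes called numbered 5, against 3 with limma at a pseudocount of 0.1, 4 at a pseudocount of 1 and with the B cell covariate, 6 without a filter, 7 with DESeq2 and with the replicate block (1 higher and 6 lower in each), and 3 to 6 without single libraries.

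Changes near zero turned sign. Without single libraries the log2 fold changes ran from -0.16 to 0.33 for Gbp5, -0.15 to 0.043 for Gbp6, -0.16 to 0.044 for Igtp, -0.35 to 0.12 for Iigp1, -0.18 to 0.15 for Tgtp1, -0.11 to 0.16 for Tgtp2, -0.20 to 0.018 for Gm12250, -0.056 to 0.18 for Gvin1 and -0.14 to 0.042 for Jak2. With the B cell covariate Iigp1 stood at 0.028, Tgtp2 at -0.18 and Gvin1 at -0.068. The causes were not tested.

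The labels do not say whether same-numbered libraries were paired. Their deviations correlated at 0.135, 0.0738 and -0.0705, which cannot settle the question. With the replicate block 1183 genes and 1 member were called, and not every library correlated best with its own number. The near-identical copies and the few counts of Gbp5 limit the precision of those genes.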

Other observations

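These ratios were formed after the values were seen and carry no test. The summed FPKM of the 4 members on chromosome 5 over that of the 4 members on chromosome 3 was 2.65, 2.79 and 2.81 in knockout libraries and 2.16, 2.16 and 1.83 in WT libraries, without overlap. Gbp9 over Gbp3 was 4.17, 3.51 and 4.1 in knockout and 2.34, 2.45 and 1.91 in WT. These were the members whose groups did not overlap, in opposite directions, so their ratio had to separate the groups. The summed FPKM of the 10 members over that of Ifng was 29, 29.3 and 30.1 in knockout and 5.18, 10.5 and 12.7 in WT, with the knockout libraries close together and the WT libraries spread.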
